A study of Mus musculus with 2 samples.

Results

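Among 18901 strong peaks of open chromatin outside promoters in the mouse heart, 723 (3.83%) held at least 2-fold more signal in the Ythdc1 knockout library than in the control library. These 723 peaks are called gained here. They were chosen from the deposited peak table by 3 criteria. The authors' annotation was other than a promoter within 1 kb of a transcription start. The summed count of both libraries was at least 100. The log2 ratio of knockout to control, after 0.5 was added to each count and each library was divided by its total in peaks, was at least 1. The whole table held 58076 peaks. The chosen set thus rests on the same counts that are given below, and all ratios of its members are descriptions of how they were chosen.

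The assay was ATAC-seq on nuclei extracted from the heart. It uses a transposase, Tn5, that inserts adapters where DNA is open. The control library came from Ythdc1flox/flox mice and the knockout library from Ythdc1 CKO mice, a cardiac deletion. Both genotypes were 15 days of age and on a normal chow diet. The labels do not give the Cre driver, the cells it acts in, the sex of the animals or how many animals stand behind each library. There was 1 library per genotype, so there is no spread between animals, no difference was tested and no p-value is given. Intervals are exact (Clopper-Pearson) at 95% and cover counting error only. In whole-heart nuclei, a shift in the share of a cell type and a difference in accessibility within that cell type cannot be told apart.

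Ythdc1 encodes a nuclear protein that reads N6-methyladenosine on RNA. Open chromatin away from promoters often marks enhancers, short stretches of DNA to which transcription factors bind and from which they act on a start site that may lie far away. An enhancer may act on a gene other than its nearest, and neighbouring enhancers often serve the same gene. The annotation in the table gives every peak the gene whose start is closest, and that gene is called the assigned gene.

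The control library held 6755590 counts in peaks and the knockout library 6466537. Heart muscle genes had promoter peaks in both, for example Myh6, the alpha myosin heavy chain, with 799 and 758 counts, and Tnnt2, cardiac troponin T, with 419 and 457. Other heart muscle promoters were lower in the knockout, with intervals below 1. These were Nkx2-5, a cardiac transcription factor (176 and 109, ratio 0.648, 0.505 to 0.826), Tnni3, cardiac troponin I (429 and 287, 0.699, 0.60 to 0.813) and Ryr2, the ryanodine receptor (175 and 123, 0.735, 0.578 to 0.930). Ptprc, a leukocyte marker, Epcam, an epithelial marker, and Alb, a liver marker, had no promoter peak in the table. However, 5 genes of the myeloid marker list and 1 of the epithelial and lung list had one. These absences thus do not show that leukocytes or epithelial cells were missing. The promoter peak of Ythdc1 had 358 control and 314 knockout counts (ratio 0.916, 0.785 to 1.07), which does not check the genotype because the deleted part of the gene is not given. The median log2 ratio of all strong peaks outside promoters was 0.0040, so the set from which the members come was centred close to 0.

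Sequence could be shown for few members, because RefSeq start windows (GRCm38.p6) were the only genomic sequence used. Of 32817 windows of 250 bases upstream of a start, 5 lay wholly inside a gained peak, in 4 peaks, and 126 lay inside any strong peak outside promoters. They are shown because they are gained peaks that cover a RefSeq start, although the authors' annotation places these peaks outside promoters. All 4 lie on the minus strand and are printed 5′ to 3′ with CpG dinucleotides in capitals. For Gm40371, which has a pair of overlapping windows, the window of the start with the lower coordinate is printed.
Gm40371, chr6:47651305-47651554: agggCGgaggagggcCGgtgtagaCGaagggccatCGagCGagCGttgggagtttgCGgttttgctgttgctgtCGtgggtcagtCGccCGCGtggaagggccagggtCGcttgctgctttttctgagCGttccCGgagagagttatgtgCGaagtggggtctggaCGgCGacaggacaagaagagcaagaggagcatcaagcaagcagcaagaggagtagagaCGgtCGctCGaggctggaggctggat
Ahnak2, chr12:112795743-112795992: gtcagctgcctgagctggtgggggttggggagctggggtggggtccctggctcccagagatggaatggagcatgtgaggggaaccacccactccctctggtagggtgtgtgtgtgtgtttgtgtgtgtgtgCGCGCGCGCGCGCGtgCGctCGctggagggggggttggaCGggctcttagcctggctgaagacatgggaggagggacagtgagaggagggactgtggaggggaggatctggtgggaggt
Gm32630, chr7:16932150-16932399: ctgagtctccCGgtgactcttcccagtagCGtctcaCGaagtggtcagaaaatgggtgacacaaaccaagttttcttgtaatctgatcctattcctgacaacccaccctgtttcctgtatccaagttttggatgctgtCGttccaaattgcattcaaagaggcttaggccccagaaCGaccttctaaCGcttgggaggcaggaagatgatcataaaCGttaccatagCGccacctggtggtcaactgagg
Gm40501, chr8:64881002-64881251: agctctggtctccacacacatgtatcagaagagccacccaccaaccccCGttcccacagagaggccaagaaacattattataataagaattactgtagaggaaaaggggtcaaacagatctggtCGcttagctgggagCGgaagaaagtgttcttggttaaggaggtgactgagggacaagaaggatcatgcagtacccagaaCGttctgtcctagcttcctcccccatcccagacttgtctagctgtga

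The Gm40371 window held 20 CpG dinucleotides, against a median of 6 over all RefSeq windows and 5 over those in strong peaks outside promoters. Its peak, annotated as distal intergenic, had 297 control and 710 knockout counts (ratio 2.49, 2.18 to 2.87). The Ahnak2 window held 10 CpG dinucleotides, most of them in a run of alternating C and G, and its peak had 59 and 130 counts (ratio 2.29, 1.68 to 3.19). The Gm32630 window held 8, with 43 and 97 counts in its peak, and the Gm40501 window 4, with 21 and 84. The CpG content of the 4 windows therefore spanned values on both sides of the median.

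A total of 8 motifs was searched for on both strands of the windows. The short ones were TGANTCA for AP-1, CATTCC for TEAD factors, AGATAA for the GATA family and TGTGGT for RUNX. The longer ones, searched for as palindromes with free letters between their arms, were those of the glucocorticoid receptor, MEF2 and NFI, and the CArG box of SRF. The free letters of the longer motifs can overlap a match of a shorter one. A single match was found in the 5 windows, a TEAD motif at bases 62 to 67 of the Ahnak2 window. It lies on the strand opposite to the printed one, which there reads GGAATG, the reverse complement of CATTCC. The TEAD motif stood in 12.6% of all RefSeq windows, and the shares of the others were 14.0% (RUNX), 9.99% (GATA), 6.75% (AP-1), 3.20% (MEF2), 1.47% (CArG box), 0.387% (glucocorticoid receptor) and 0.0366% (NFI). The other 719 members were not searched.

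The gained peaks were for the most part modest in size and in difference. Their summed count ranged from 100 to 2146 with a median of 144, against a median of 164 over all strong peaks outside promoters. The control held 11 to 379 counts per gained peak (median 44) and the knockout 66 to 1814 (median 101). Together they took 0.578% of the control counts in peaks and 1.42% of the knockout counts. The ratio had a median of 2.30 and a maximum of 8.82. It was at least 3 in 109 peaks, at least 4 in 23 and at least 5 in 8. The counting interval lay wholly above 1 in all 723, which the criteria on count and ratio fix in advance. It lay wholly above 2 in 132.

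At the threshold, the closest member inside was a peak assigned to Elp3, with 64 and 123 counts and a log2 ratio of 1.0002. The closest peak outside was assigned to Tas1r3, with 52 and 100 counts and a log2 ratio of 0.9999. Peaks on either side of the line thus differed by far less than their counting error.

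In the same strong set, 956 peaks (5.06%) were at least 2-fold lower in the knockout. Among strong promoter peaks, 157 of 15996 (0.981%) were at least 2-fold higher, and over all peaks, weak ones included, 3537 (6.09%) were. The gained share dropped with signal, from 4.92% of peaks with a summed count of 100 to 149 to 1.82% of those with 500 or more. The lost share dropped further over the same range, from 7.59% to 0.429%, so that gained peaks outnumbered lost peaks above a summed count of 200 (169 against 141). The number of members depends on scaling. The authors' RPM values, which add 1 to each count, lower log2 ratios by a median of 0.17. On that scale 392 peaks passed the same threshold.

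**Figure D1:**
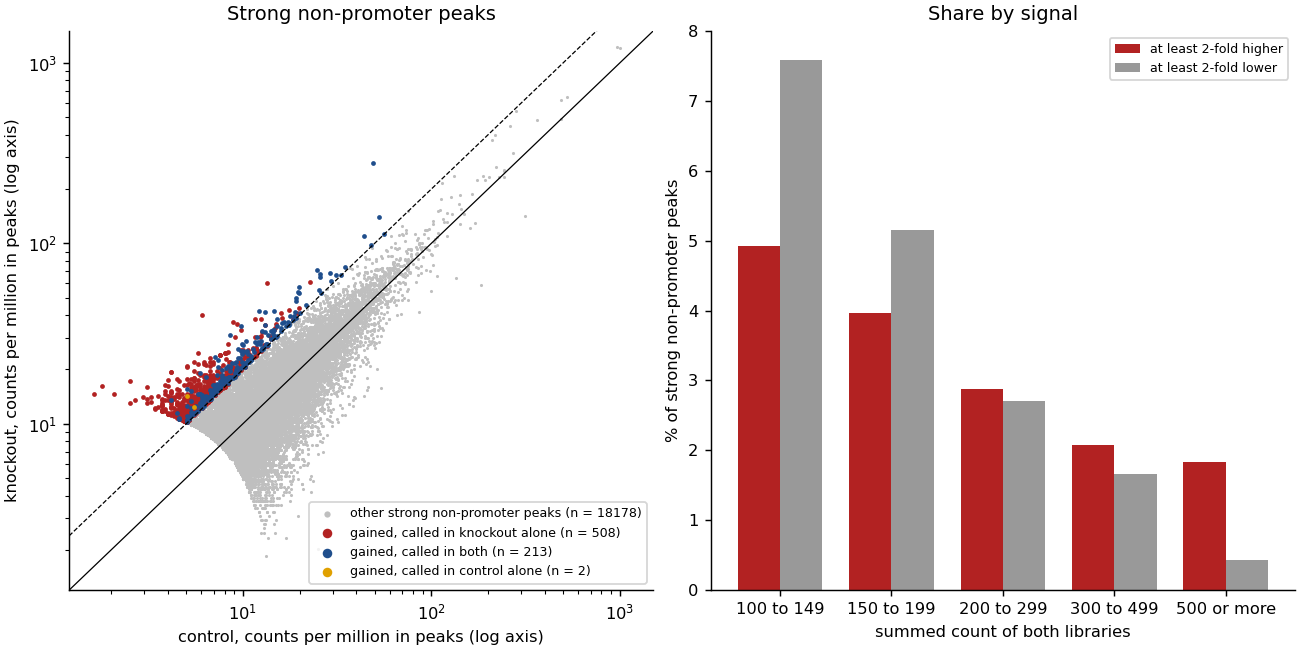
Left, each strong peak outside promoters by its CPM over all peaks in the control (x) and the knockout (y), both on log axes, with gained peaks coloured by the library in which the authors called them, a solid line of equal signal and a dashed line of 2-fold higher signal. Right, the share of strong peaks outside promoters that were at least 2-fold higher (red) or lower (grey) by summed count, where the higher share goes from 4.92% to 1.82% and the lower share from 7.59% to 0.429%.

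Most members were peaks that the authors had called in the knockout library alone. These numbered 508, which is 31.2% of the 1627 strong peaks called in that library alone. A further 213 were called in both libraries, 1.5% of 14175, and 2 in the control alone, of 3099. A peak called in the knockout alone was chosen by the caller for its high signal there, and the direction is in part built in. The 213 members called in both do not share that selection. They were stronger (median summed count 191 against 136), wider (508 against 378 bp) and farther from a start (12721 against 9742 bp), with a lower median log2 ratio (1.12 against 1.26). Strong peaks that were not members differed the same way between these calls (186 against 127, 458 against 302 bp, 10826 against 7581 bp, and 0.027 against 0.63). Both members called in the control alone had more counts in the knockout. They were a peak assigned to ENSMUSG00000110286 on chromosome 8 with 34 and 92 counts and a peak assigned to Nnmt, inside an intron of Zbtb16, with 37 and 80.

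To compare members with peaks of equal signal, each strong peak outside promoters was given the gained share of its bin among 10 bins of summed count, and these shares were added over a class. By this measure the annotation of the gained peaks resembled that of the strong set. The largest class was distal intergenic, with 219 members against 232.5 at equal signal. Introns other than the first held 217 against 206.3, and the first intron 102 against 113.4. The promoter flank, from 1 to 3 kb, held 127 against 112.7. Exons held 30 against 25.4, 3' UTRs 15 against 16.9, the stretch downstream of genes 13 against 15.0, and 5' UTRs none of 25 strong peaks. Over the classes with members, the ratio of the number found to the number at equal signal ran from 0.87 (downstream) to 1.18 (exons).

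The place of the members relative to genes differed with peak calling. Of the 213 called in both libraries, 91 (42.7%) were distal intergenic, against 74.2 at equal signal among peaks called in both, and 23 lay in the promoter flank, against 31.4. Of the 508 called in the knockout alone, 128 (25.2%) were distal intergenic and 103 (20.3%) lay in the flank, against 120.1 and 116.7. The flank thus held more members than at equal signal in the pooled set and fewer within either group of calls. The distance to the assigned start had a median of 10689 bp, and 324 members lay at 10 to 50 kb. At 100 kb or more there were 11 members, against 14.4 at equal signal, whereas lost peaks numbered 40 there, against 19.9.

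Members lay on all autosomes and on X. On chromosome 12 there were 16, against 31.1 at equal signal, and on chromosome 17 there were 44, against 33.7. The X chromosome held 3, against 5.73, and none of 18 strong peaks on the Y chromosome was a member.

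**Figure D2:**
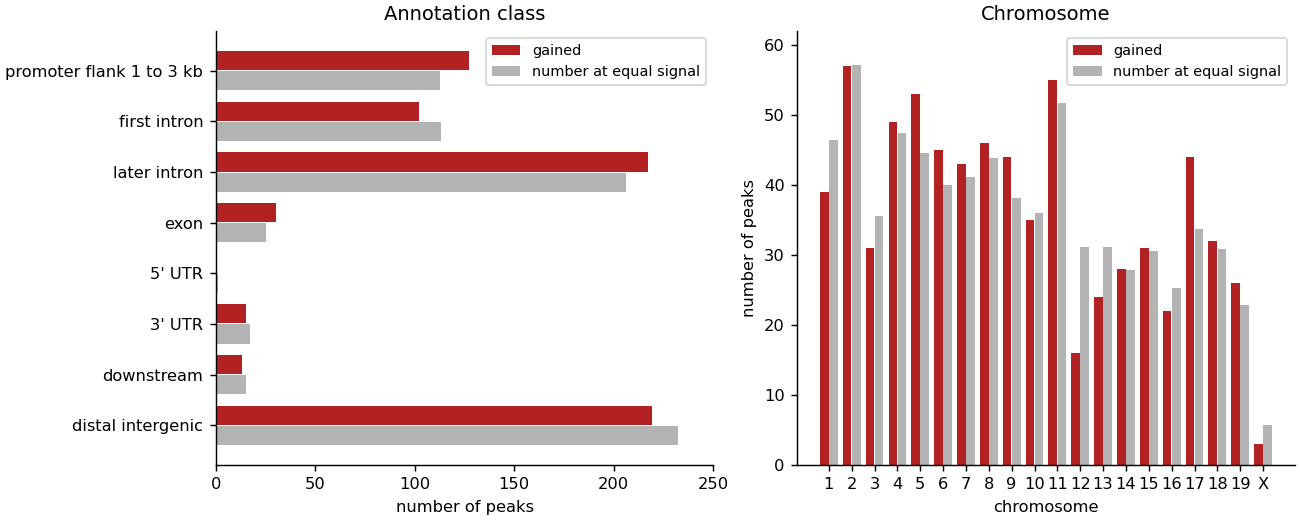
Number of gained peaks (red) and the number at equal signal (grey) by annotation class (left) and by chromosome (right). Classes stay close to the grey bars, such as 219 against 232.5 for distal intergenic peaks, and chromosome 12 has the widest relative gap among the autosomes, 16 against 31.1.

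Gained peaks lay near one another, and more so than at equal signal. Around each member, all other strong peaks outside promoters within 50 kb were counted, so that 2 members near each other count once from each side. Of 2727 such neighbours, 314 (11.5%) were themselves gained, against 95.2 at equal signal. Around strong peaks that were neither gained nor lost the share was 4.33%, and around lost peaks 1.92%. The share around members went from 14.1% within 2 kb to 11.6% at 2 to 10 kb, 11.3% at 10 to 50 kb and 7.94% at 50 to 200 kb. Lost peaks were scarce around members, with 38 of 2727 neighbours (1.39%), against 3.27% around strong peaks that were neither gained nor lost. Such nearness was not particular to gained peaks. Around lost peaks, 152 of 1983 neighbours within 50 kb (7.67%) were themselves lost, beside 5.06% of all strong peaks. Within 2 kb, 20 of 110 (18.2%) were.

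The nearness of gained peaks was not limited to peaks of the same assigned gene, since 110 of 1115 neighbours assigned to another gene (9.87%) were gained. Among peaks called in both libraries 28 of 476 neighbours (5.88%) were gained, beside a share of 1.5% over all strong peaks called in both, as 11.5% stands beside 3.83% in the whole set. Without peaks called in the knockout alone, an alternative chosen after the data had been seen, the share was 5.46%. With gaps of at most 50 kb, 195 members (27.0%) fell into 77 clusters of at least 2, and 22 clusters held at least 3. Of these 22, 21 spanned no lost peak. Lost peaks were 5.06% of all strong peaks and the clusters held few peaks besides members, so few lost peaks would be met at that share.

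Peaks that the criteria could not take, because they were promoters or had too few counts, leaned the same way. Promoter peaks within 2 kb of a member had a median log2 ratio of 0.42 (29 peaks), against 0.02 around other strong peaks and -0.20 around lost peaks. The median around members was 0.22 at 2 to 10 kb and 0.03 at 50 to 200 kb. Weak peaks outside promoters within 2 kb of a member had a median of 0.63 (42 peaks), against -0.11 around other strong peaks and -0.92 around lost peaks. Within 50 kb of a member, 20.3% of weak peaks were at least 2-fold higher, against 11.7% around other strong peaks. These neighbours were measured in the same pair of libraries and are a description, not separate support.

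**Figure D3:**
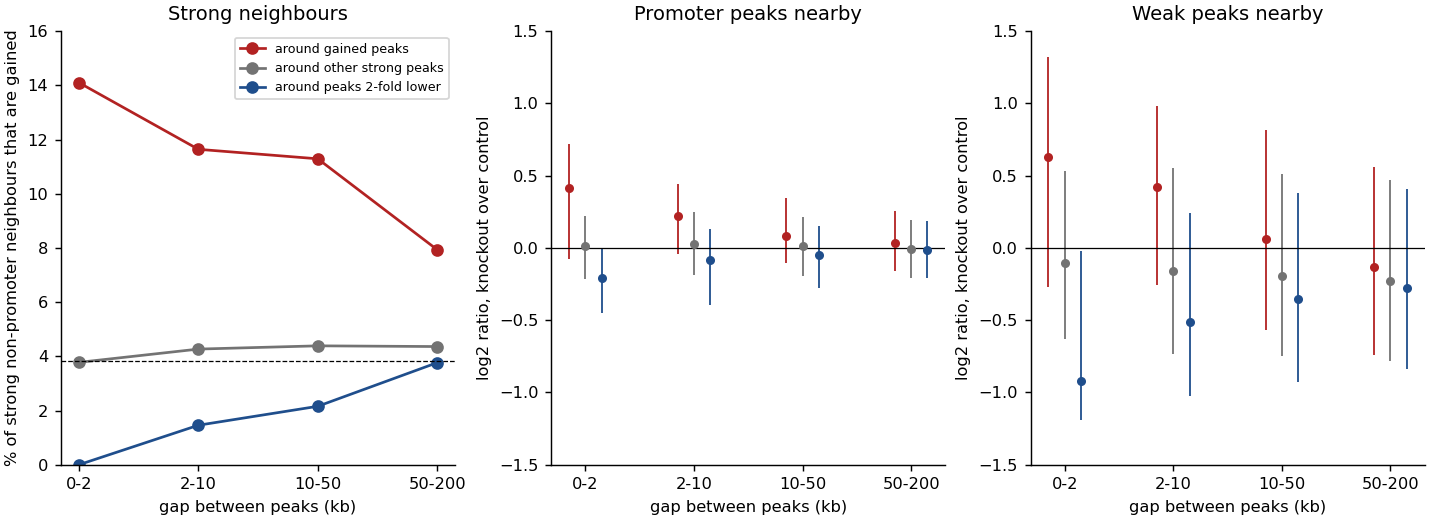
Left, the share of strong neighbours outside promoters that were gained, by the gap between the peaks in kb, around gained peaks, other strong peaks and peaks 2-fold lower, with the share of all strong peaks, 3.83%, dashed. Middle and right, the median log2 ratio with its quartiles (bars) of promoter peaks and of weak peaks outside promoters at the same gaps, in the same colours; around gained peaks both medians are highest within 2 kb, at 0.42 and 0.63.

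Clusters with many members lay at Ddit4, Fkbp5, Mical2 and Smad6. Their assigned genes include regulators of growth signalling and of steroid receptors and proteins of the actin skeleton. They are described in turn, with control counts given before knockout counts.

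Ddit4, which encodes an inhibitor of the mTORC1 growth pathway and is induced by glucocorticoids and stress, had 6 of 10 assigned strong peaks gained, the most of any gene together with Mical2. They lay from 17937 bp upstream to 30426 bp downstream of the start on chromosome 10. The strongest, upstream, had 223 and 432 counts (ratio 2.02, 1.72 to 2.39). The highest ratio was at a peak 3784 bp downstream, with 78 and 247 counts (3.29, 2.55 to 4.32). The other 4 had 108 and 265, 68 and 164, 56 and 116, and 30 and 76 counts. Of the 12 peaks assigned to Ddit4, 11 had a ratio above 1, including its promoter peaks, the stronger of which had 532 and 720 counts. With 1 peak assigned to another gene, the members at this locus formed the cluster with most members, 7 of 10 strong peaks from 59921105 to 59979459, with 682 and 1575 counts in all.

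Fkbp5, a co-chaperone that binds steroid receptors with Hsp90, had 4 of 5 assigned strong peaks gained. The highest ratio was at chromosome 17 from 28420177 to 28420833, with 60 and 237 counts (4.10, 3.10 to 5.57). The others had 42 and 143 counts (3.53), 30 and 83 (2.86), and 67 and 178 (2.76). All 6 strong peaks outside promoters from 28420177 to 28528447 were members, with 327 and 995 counts in all, the other 2 being assigned to genes without a matched symbol. All 8 peaks of Fkbp5 had a ratio above 1, and its promoter peaks had 332 and 456, 215 and 461, and 53 and 121 counts.

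Zbtb16, a zinc finger transcription factor also induced by glucocorticoids, had 3 of 11 strong peaks gained, all in introns and 52300 to 111691 bp downstream of the start. The pair of weak ones had high ratios, with 28 and 125 counts (4.6, 3.08 to 7.30) and 27 and 113 (4.31, 2.85 to 6.92). The strongest was broader, with 322 and 637 counts (2.07, 1.80 to 2.37), and was called in both libraries. The Nnmt peak named above lies in the same gene and completes a cluster of 4 members among 9 strong peaks.

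Per2, a circadian clock gene, had both of its strong peaks gained, with 173 and 439 counts (2.65) and 134 and 371 (2.89), and both were called in both libraries. Its strongest promoter peak had 485 and 617 counts, and a weaker one 31 and 84. The Per2 values were singled out after they had been seen.

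**Figure D4:**
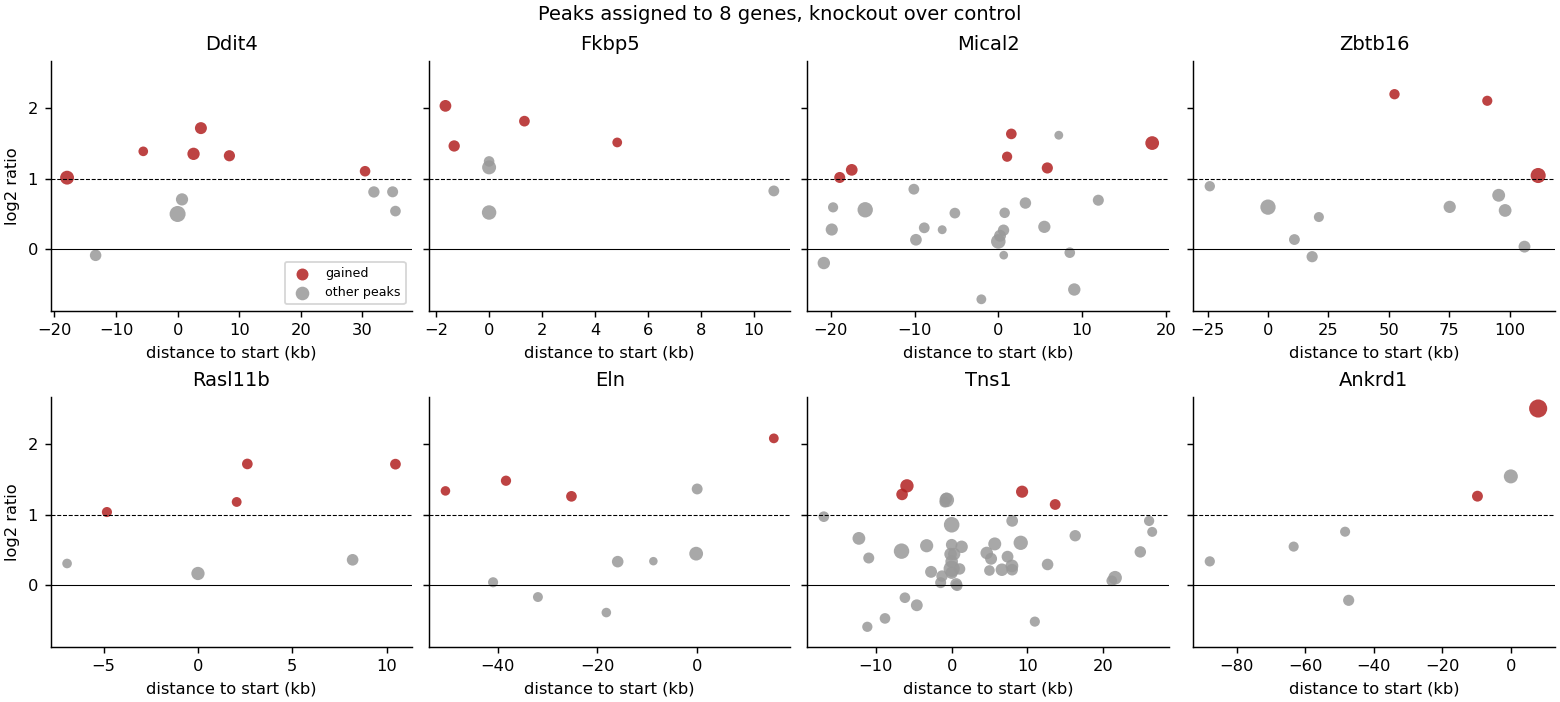
Log2 ratio of knockout to control of every peak assigned to 8 genes, by distance to the start in kb, with gained peaks in red, other peaks in grey, point size growing with the summed count and the threshold dashed. At Fkbp5 all 8 peaks lie above 0, at Ddit4 11 of 12, and at Tns1 42 of 48.

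Genes of the actin skeleton and of adhesions carried several members. Mical2, an actin-oxidizing monooxygenase, had 6 of 20 strong peaks gained, the strongest in an intron with 168 and 458 counts (2.84, 2.38 to 3.42). The others ranged from 43 and 103 to 94 and 197 counts, and 4 of the 6 were called in the knockout alone. Tns1, the focal adhesion protein tensin, had 4 of 36, with 154 and 393 counts at the strongest (2.66, 2.21 to 3.23). Kalrn, a guanine nucleotide exchange factor, had 4 of 17 gained and 1 lost. The highest of the Kalrn peaks had 17 and 84 counts (5.04, 3.04 to 9.28). Mical2 and Tns1 had many strong peaks, and the members were a minority of them.

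Members near Ankrd1, which encodes a cardiac ankyrin repeat protein induced by stretch, included the strongest of all. This peak, downstream of the gene on chromosome 19 from 36110149 to 36111870, had 332 and 1814 counts (5.70, 5.08 to 6.44). A further peak 9740 bp upstream had 61 and 141 counts. The promoter peak of Ankrd1 had 181 and 507, and 3 of the 4 remaining peaks, all farther upstream, had ratios above 1 but below 2.

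Other loci with repeated members were of mixed roles. Smad6, an inhibitor of BMP signalling, lies in a cluster of 5 members among 9 strong peaks, with 401 and 1016 counts in all. Of these, 1 was assigned to Smad6, with 66 and 213 counts, and 4 to ENSMUSG00000111058, 2 of them inside introns of Smad6. Rasl11b, a small GTPase of the Ras family, had 4 of 6 strong peaks gained, from 37 and 81 to 45 and 143 counts, all called in the knockout alone. The peak with 45 and 143 counts lay in an intron of another gene, Scfd2. Eln, the elastin gene, had 4 of 8, and only 1 of these lay within Eln itself (22 and 91 counts), while the other 3 lay in introns of a neighbouring gene. Bcl2l1, which encodes the survival protein Bcl-xL, lay in a cluster of 4 members among 7 strong peaks.

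Muscle genes were also among the repeated loci. Myom2, an M-band protein of the sarcomere, had 3 of 4 strong peaks gained, with 112 and 237, 66 and 137, and 47 and 107 counts. Slc8a1, the sodium-calcium exchanger of heart muscle, had 1 member assigned to it, 31995 bp upstream with 31 and 95 counts. A further 4 lay in its introns and were assigned to ENSMUSG00000079333. They had 43 and 112, 36 and 114, 31 and 82, and 29 and 91 counts. All 5 were called in the knockout alone. Clic5, a chloride channel family protein tied to actin, had 3 of 9, Acer2, a ceramidase of the Golgi, 3 of 6, Plcd3, a phospholipase C, 3 of 7, and Jcad, a protein of endothelial junctions, 3 of 10.

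The highest ratios belonged to peaks with few counts in the control. The first was assigned to D730003K21Rik, with 12 and 105 counts (8.82, 5.02 to 18.3). Sepsecs, an enzyme of selenocysteine synthesis, followed with 11 and 95 (8.68, 4.82 to 18.7), then Acer2 with 14 and 94 (6.81) and Klhl29 with 17 and 111 (6.66). A peak assigned to ENSMUSG00000086806 on chromosome 4 had 41 and 260 counts (6.56, 4.75 to 9.45). Among the 15 highest ratios, Ankrd1 alone was called in both libraries and the other 14 in the knockout alone.

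After Ankrd1, the other 9 of the 10 members with the highest signal had ratios from 2.01 to 2.84. Depp1, a target of FOXO transcription factors, had 357 and 911 counts at a peak in an intron of the neighbouring Rassf4 (2.66, 2.36 to 3.02). A peak assigned to the predicted gene Gm7860 had 379 and 731 (2.01, 1.78 to 2.29), with the highest authors' fold enrichment of any member, 66.6 in the control and 119 in the knockout. Pim3, a serine/threonine kinase, had 235 and 480 (2.13). Spock2, a proteoglycan of the matrix, had 197 and 445 (2.36) at a peak in an intron of Ascc1. All 10 of the strongest members were called in both libraries.

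The promoters of the assigned genes were higher on the whole, by a small amount. The 723 members were assigned to 626 identifiers, of which 561 had a single member, 46 had 2 and 19 had at least 3. Of these genes 356 had a promoter peak, and only the strongest of each gene was taken. The median log2 ratio of these peaks was 0.10, with 63.8% above 0 and 11 (3.09%) at least 2-fold higher. Among 4523 genes with strong peaks but no member the median was -0.0074, with 48.8% above 0. The median was 0.23 over the 45 genes with at least 2 members and 0.24 over the 16 with at least 3. On the RPM scale, where log2 ratios are lower by a median of 0.17, the members are fewer and their genes' median was -0.014. The -0.0074 of genes without a member is not on that scale, and no RPM counterpart is given.

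A symbol could be matched for 545 of the 723 members (468 genes). Of all 6993 symbols with a strong peak outside promoters, 6.69% had a member. Genes were grouped into 20 lists of pathways and cell types, chosen with earlier results of these data known. For each list the share of its strong peaks that were gained is given beside the 3.83% over all strong peaks. The share to set beside values for peaks called in both libraries is 1.5%.

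Glucocorticoid receptor targets, genes that the ligand-bound receptor is known to induce, had the highest share. Of their 57 strong peaks 18 (31.6%) were gained, against 1.79 at equal signal, none was lost, and 47 had a ratio above 1, against 50.4% of all strong peaks outside promoters. Their median log2 ratio was 0.71. The 18 lay at 7 of 13 genes with strong peaks. Besides Ddit4, Fkbp5 and Zbtb16 these were Tsc22d3, Errfi1, Pdk4 and Sesn1. Tsc22d3, an anti-inflammatory mediator of glucocorticoids, had 43 and 117 and 35 and 70 counts at its pair of members. Pdk4, an inhibitor of glucose oxidation, had 78 and 195, Errfi1, an inhibitor of the EGF receptor, 92 and 202, and Sesn1, an inhibitor of mTORC1, 50 and 101. Among peaks called in both libraries 8 of 41 (19.5%) were gained, beside 1.5% over all strong peaks called in both. Without Ddit4, the gene with most members, 12 of 47 (25.5%) were. The strongest promoter peaks of the list's genes had a median log2 ratio of 0.24, with 14 of 18 above 0 and none past 2-fold. Weaker promoter peaks were left out of this count, such as those of Fkbp5 with 215 and 461 and 53 and 121 counts, past 2-fold.

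Targets of SRF and its MRTF partners, which respond to actin assembly, had 8 of 88 (9.09%) gained, at Ankrd1, Fhl2, Synpo and Tns1. Fhl2, a LIM protein of the heart, had 79 and 169 counts, and Synpo, an actin-binding protein, 47 and 95. YAP and TEAD targets had 4 of 41 (9.76%), shared between Ankrd1 and Ptpn14, a phosphatase that binds YAP, whose members had 64 and 168 and 25 and 89 counts. Focal adhesion and actin regulators had 10 of 156 (6.41%). Among peaks called in both libraries 3 of 57, 3 of 30 and 2 of 98 (2.04%) were gained, beside 1.5% over all such peaks. The adhesion list also had 7 lost peaks, and the other 2 lists none. The lists share members and are not separate counts. The Tns1 peaks stand in the SRF and adhesion lists, and the Ankrd1 peaks in the SRF and YAP lists. Without Tns1, the gene with most members in both, the SRF list had 4 of 52 (7.69%) gained and the adhesion list 6 of 120 (5%). Besides Tns1, the adhesion list had among others Sdc4, a syndecan, with 37 and 143 counts (4.0, 2.80 to 5.96), Itga5, a fibronectin receptor subunit, with 38 and 106, and Itga9 with 53 and 111.

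Genes of the extracellular matrix and fibrosis had 9 of 47 (19.1%) gained, at 5 genes. Besides Eln they were Timp3, an inhibitor of metalloproteinases (146 and 294, 37 and 104 counts), Col5a1 (54 and 160), Col8a1 (30 and 85) and Postn, periostin (37 and 74). This share differed with peak calling and with assignment. Among peaks called in both libraries 1 of 32 (3.13%) was gained, that of Timp3, beside 1.5% over all such peaks. When peaks inside a gene were given to that gene rather than to the nearest start, 5 of 49 (10.2%) were. Without Eln, the gene with most members, 5 of 39 (12.8%) were.

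Genes of the sarcomere and Z-disc had 4 of 86 (4.65%) gained, at Myom2 and Synpo2, near the share over all strong peaks, and 3 lost. Calcium handling and ion channel genes had 2 of 77 (2.60%), at Ryr2 with 43 and 85 counts, and at Slc8a1. They had 4 lost, and 24 of the 77 had a ratio above 1, with a median log2 ratio of -0.30. Their strongest promoter peaks had a median of -0.41, with 2 of 18 above 0. By the gene that holds the peak their share was 9 of 127 (7.09%), with the Slc8a1 introns included. Cardiac transcription factors had 1 of 39, a peak 1206 bp upstream of Gata4 with 53 and 137 counts. Fetal and stress genes had 2 of 33, the same Ankrd1 peaks as above, and 2 lost. Fatty acid oxidation and mitochondrial genes had 4 of 33 at Pdk4, Cd36, Hadha and Cpt2, and AP-1 and immediate early genes 2 of 26 at Maff and Ier3. Among peaks called in both libraries 1 of 24 (Hadha) and 1 of 20 (Maff) were gained, beside 1.5% over all such peaks.

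Markers of other cell types held members in 3 of 8 lists. Endothelial markers had 4 of 53 (7.55%, against 1.82 at equal signal). These were at Vwf with 30 and 92 counts, Pecam1 with 50 and 146, Kdr with 49 and 118 and Flt1 with 59 and 128. Among peaks called in both libraries 1 of 35 was gained, that of Pecam1, beside 1.5% over all such peaks. Of the strongest promoter peaks of endothelial markers, 10 of 16 had a ratio above 1. Mural cell markers had 1 of 15, at Cspg4, and epithelial and lung markers 2 of 10 (20%, against 0.377 at equal signal), distal peaks assigned to Epcam and Krt8. Fibroblast (13 strong peaks), adipocyte (15), myeloid (6), Schwann cell and neuronal (4) and skeletal muscle markers (4) had none, and cell cycle genes had none of 20. The numbers at equal signal in these lists were only 0.136 to 0.638. The part of cell composition in the members was not tested.

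**Figure D5:**
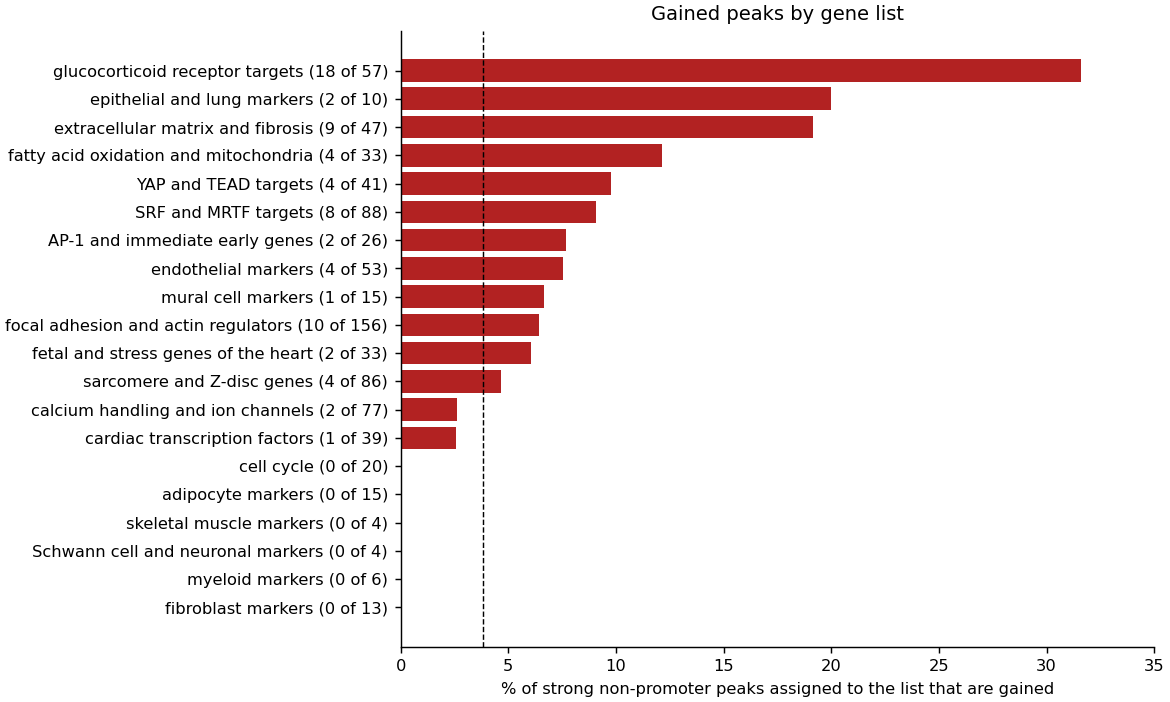
Share of strong peaks outside promoters that were gained, in percent, for peaks assigned to each of 20 gene lists, with the number of members of the number of strong peaks in brackets and the share of all strong peaks, 3.83%, dashed. Glucocorticoid receptor targets stand at 31.6%, and several lists rest on fewer than 20 peaks.

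Gene ontology (GO) terms came from the table, which gives terms for the assigned gene. Of the members 434 had a term and 289 had none, close to the 419.5 and 303.5 at equal signal. Over 254 terms with at least 50 genes, the ratio of members to the number at equal signal had a median of 1.02 and was above 1 in 131, a centre that the measure itself sets near 1. It was 2 or more in 7 terms and below 0.5 in 26, of which 1 had no member. The 7 included mitochondrial matrix (7 of 84 against 3.13) and neuron differentiation (9 of 118 against 4.13). They also included protein homooligomerization (11 of 139 against 5.35) and response to bacterium (9 of 117 against 4.38). Among peaks called in both libraries, these had 2 of 59, 3 of 88, 4 of 101 and 3 of 82 gained. The rest of the 7 come next. Cell proliferation had 16 members of 163 strong peaks against 6.02 at equal signal, of which Ddit4 gave 6 and none of the other 9 genes, among them Vegfa, Bcl2l1 and Src, more than 2. Extracellular matrix organization had 14 of 172 against 6.60, at 10 genes that included Eln, with 4 members, Fbln2, Col4a1 and Adamtsl2. Response to hypoxia had 18 of 243 against 9.0, at 13 genes that included Ddit4, again with 6, Vegfa, Plod2 and Epas1, the gene of hypoxia-inducible factor HIF-2 alpha, where an intronic peak had 199 and 398 counts. Among peaks called in both libraries, cell proliferation had 4 of 115 gained, extracellular matrix organization 3 of 116 and response to hypoxia 5 of 159. The share over all such peaks was 1.5%.

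Of further terms, positive regulation of MAPK cascade had 13 of 175 against 6.69, at 11 genes including Kdr, Flt1, Epha2 and Cd36, and receptor complex 15 of 206 against 7.96. Lipid metabolic process had 19 of 286 against 10.8, at 15 genes including Acacb, Adipor2, Cpt2 and Hadha. Among peaks called in both libraries, the MAPK term had 3 of 119 gained, receptor complex 3 of 148 and lipid metabolic process 5 of 199. Among the terms below their number at equal signal were potassium ion transmembrane transport (0 of 102 against 4.15, with 13 lost against 5.68), ubiquitin-dependent protein catabolic process (1 of 143 against 5.75), integral component of plasma membrane (13 of 599 against 23.3), protein transport (3 of 261 against 9.95), actin cytoskeleton organization (4 of 277 against 10.3), calmodulin binding (3 of 223 against 8.32), nucleolus (6 of 393 against 14.3) and chromatin organization (1 of 171 against 6.47). Terms with near meanings differed, since cytoskeleton organization had 15 of 216 against 7.69. Of these 15, 6 were the Mical2 peaks. Terms share genes and are not separate counts.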

How the data were processed

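Per the submitters' processing notes, BWA and MACS2 were used, with GRCm38.p6 as the genome build. Neither roles nor versions are stated, nor are read filters, duplicate removal, the Tn5 offset or any pooling of animals. Per the file headers, the deposited table holds peaks merged over both libraries, with whole-number counts that are not normalized. The authors' RPM values, checked against the counts, equal the count plus 1 times a constant per library (0.01965 in the control, 0.01822 in the knockout). The deposited log2 fold change is the log2 of those RPM values' ratio. The authors' fold enrichment is a ratio, used only to describe peaks.

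Log2 ratios were computed from the counts with Python 3.11.15, pandas 2.3.3 and scipy 1.17.1, and TMM factors with edgeR 4.0.16. All shares are descriptions, since there was 1 library per genotype. The rule that chose the members was tested on simulated counts that held counting error only. The other steps were not simulated. Coordinates are those of the table. Gene symbols were matched to Ensembl identifiers by position in RefSeq (same strand and a start within 100 bases, else span overlap over union of at least 0.5 and 2 times the next, else identifiers with GO terms at least 95% within exactly 1 protein-coding gene). This matched 18604 of 24480 identifiers (76.0%), and the rule was revised after unmatched names had been seen. The members, the gene lists and the motifs were chosen with earlier results of these data known.

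Named were the 15 members with the highest ratio, the 10 with the highest summed count, the largest clusters, genes with at least 3 members, up to 4 genes per list and the peaks nearest the threshold, with predicted genes left out where not needed. Per2, Epas1, Spock2's host gene and genes quoted under GO terms fall partly outside this rule, and their choice followed a look at their values. Alternatives covered scaling (RPM, median centring, TMM, loess), the pseudocount, the count and fold thresholds, the promoter limit, peak calling, neighbour distance and gene assignment. A gene within this rule is not reported here.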

Additional observations from a re-analysis of the deposited data

How the results depend on the processing

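The cause of none of these shifts was tested. The number of members, 723, was 392 on the RPM scale, 169 with a summed count of at least 200, 135 at a log2 ratio of at least 1.5 and 213 among peaks called in both libraries, and 596 to 860 under the other 5 alternatives. The gained share of strong peaks, 3.83%, was 2.07% on the RPM scale, 4.52% with median centring, 4.55% with TMM, 4.31% with a loess trend removed, 3.16% with a pseudocount of 5, 2.47% at a summed count of at least 200, 0.714% at log2 1.5 and 1.5% among peaks called in both. The distal intergenic share, 30.3%, was 36.7% with promoters within 3 kb left out and 42.7% among peaks called in both. The gained share of neighbours, 11.5%, was 8.50% (RPM), 13.4% (median centring), 13.6% (TMM), 4.68% (log2 1.5), 5.88% (called in both), 9.17% within 200 kb, 9.87% without neighbours of the same gene and 5.46% without peaks called in the knockout alone. The promoter median, 0.10, was -0.014 on the RPM scale and 0.089 to 0.18 under the other 8 alternatives. The RPM scale lowers log2 ratios by a median of 0.17, also for genes without a member. At log2 1.5 the list shares were 10.5% (glucocorticoid), 1.14% (SRF), 8.51% (matrix) and 1.28% (adhesion), and among peaks called in both they were 19.5% (glucocorticoid), 3.13% (matrix) and 2.04% (adhesion). Leaving out the knockout-alone peaks, the gene holding the peak and leaving out the gene with most members were alternatives chosen after the data had been seen. No paired analysis was possible because each genotype had 1 library, and none could be left out for the same reason. Motifs in whole peaks were not searched. With a median of 44 control counts per member, single ratios are wide.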
